A study of Mus musculus with 2 samples.

Results

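Inner root sheath cells of back skin were chosen by the measured expression of 6 genes, as barcodes in which the UMIs of Krt25, Krt27, Krt28, Krt71, Krt73 and Tchh added up to at least 20 per 10000 UMIs of the barcode. A UMI (unique molecular identifier) marks 1 captured transcript. The rule found 544 cells among the 8899 skin barcodes that passed the filters (500 or more genes, 1000 or more UMIs, mitochondrial share up to 10%), a share of 6.11% (exact 95% binomial interval 5.62 to 6.63%). In the preputial gland library, a sebaceous-like gland measured in the same series, 0 of 4699 barcodes passed the same limit. The exact 95% upper limit for this share is 0.0785%, and 3 counts of the total would be 0.0638%. The highest score in that library was 7.76. Both libraries came from C57BL/6 male mice aged 52 weeks that carried no further treatment in the labels. Back-skin biopsies of 3 mice were dissociated, pooled and run as 1 droplet library with 3′ chemistry, so cells could not be assigned to a mouse and the hair cycle stage of the skin is not given in the sources used here. With 1 library per tissue no test between conditions or cell groups was made. The intervals printed with levels, ratios and shares are 95% intervals of the counting error alone and say nothing of the spread among animals.

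The inner root sheath is the tube of keratinocytes that surrounds the growing hair shaft and moulds it. It is made of Henle's layer, Huxley's layer and a cuticle that faces the shaft cuticle. Its cells arise from the hair matrix, the dividing epithelium of the hair bulb, fill with keratin filaments and trichohyalin granules, are crosslinked and deiminated, and are finally broken down below the opening of the sebaceous gland. Krt25, Krt27 and Krt28 are type I keratins of this sheath, Krt71, Krt72 and Krt73 are its type II keratins, and Tchh encodes trichohyalin, which also occurs in the medulla of the hair shaft.

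The comparison groups were taken from the same library. Hair matrix cells were the 518 barcodes below the limit in which at least 2 of Lef1, Hoxc13, Msx1, Msx2, Dlx3 and Shh had a UMI. At least 2 of these genes also had a UMI in 204 inner root sheath cells (37.5%). Only the score limit kept those cells out of the hair matrix group, so the groups are not separated by these genes. The 5611 other keratinocytes were barcodes below the limit with at least 50 keratinocyte marker UMIs per 10000 and fewer than 20 marker UMIs per 10000 of any other class. Inner root sheath cells held 2119768 UMIs in all, between 1001 and 29257 per cell, with a median of 3324 UMIs and 1364 genes. The medians were 4490 UMIs and 1682 genes in hair matrix cells and 2524 UMIs and 1030 genes in other keratinocytes. After thinning each cell to 1000 UMIs, the median number of genes was 572.5 in inner root sheath cells, 579 in hair matrix cells and 530 in other keratinocytes. The libraries shared 0 kept barcodes, but their lists of possible barcodes have only 77142 in common, so this count says little.

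The promoters of 5 of the chosen genes are printed here because these genes define the cells and because Krt71 and Krt73 lead different sets of them. Of the keratin genes measured here, Krt25, Krt26, Krt27 and Krt28 follow one another on chromosome 11 of mm10 between Krt24 and Krt10. Of the same measured genes, Krt71, Krt72 and Krt73 follow one another on chromosome 15 between Krt5 and Krt2. Krt25 lies at chr11:99315516-99322951 and Krt71 at chr15:101733949-101743097. Each sequence covers the 250 bases before the transcription start, 5′ to 3′ in the direction of the gene, from RefSeq on GRCm38.p6. Promoters were found by symbol for 11 of 14 genes looked up, and none was found for Maf, Crym and Foxq1. Capitals mark matches to 4 motifs, each searched on both strands. They were the TATA box with the letters TATAAA, a motif of GATA factors with the letters AGATAA, a motif of TCF and LEF factors with the letters CTTTGA, and a half-site of Maf factors with the letters TGCTGA.
Krt71 (chr15:101743098-101743347, minus strand): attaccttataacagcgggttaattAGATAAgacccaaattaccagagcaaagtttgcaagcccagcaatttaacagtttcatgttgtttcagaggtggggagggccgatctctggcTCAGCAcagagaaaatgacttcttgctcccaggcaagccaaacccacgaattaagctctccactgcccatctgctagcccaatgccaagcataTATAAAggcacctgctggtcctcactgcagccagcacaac
Krt73 (chr15:101802361-101802610, minus strand): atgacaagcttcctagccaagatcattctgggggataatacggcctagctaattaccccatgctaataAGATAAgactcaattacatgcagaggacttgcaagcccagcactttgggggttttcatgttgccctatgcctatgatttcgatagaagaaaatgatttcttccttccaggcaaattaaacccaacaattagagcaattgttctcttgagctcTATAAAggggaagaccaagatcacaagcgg
Krt25 (chr11:99322952-99323201, minus strand): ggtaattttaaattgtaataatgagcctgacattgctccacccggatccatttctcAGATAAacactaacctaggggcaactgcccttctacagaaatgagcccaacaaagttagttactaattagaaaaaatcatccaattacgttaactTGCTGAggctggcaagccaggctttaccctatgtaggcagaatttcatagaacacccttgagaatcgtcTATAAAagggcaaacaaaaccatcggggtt
Krt28 (chr11:99374904-99375153, minus strand): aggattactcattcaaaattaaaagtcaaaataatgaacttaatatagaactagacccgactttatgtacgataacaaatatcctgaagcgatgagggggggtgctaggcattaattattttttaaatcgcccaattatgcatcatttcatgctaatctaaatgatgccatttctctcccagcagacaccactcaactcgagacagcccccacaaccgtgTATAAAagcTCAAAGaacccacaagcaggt
Tchh (chr3:93442080-93442329, plus strand): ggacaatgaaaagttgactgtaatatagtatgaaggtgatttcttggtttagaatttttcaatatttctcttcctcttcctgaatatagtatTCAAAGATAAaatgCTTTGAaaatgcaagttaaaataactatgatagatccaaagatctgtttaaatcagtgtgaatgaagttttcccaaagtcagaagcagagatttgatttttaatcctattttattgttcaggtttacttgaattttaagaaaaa
TATAAA was present in 5 of the 6 genes of the rule (all but Tchh), and in 12.3% of 32536 promoters of the same length. Its first base lay 30 bases before the start in Krt25, Krt28 and Krt73, 40 bases before it in Krt71 and 15 bases before it in Krt27. AGATAA was also present in 5 of the 6 genes (all but Krt28), against 9.97% of all promoters. It began 225 bases before the start in Krt71, 194 in Krt25, 183 in Krt27, 182 in Krt73 and 154 in Tchh, where it overlaps a TCAAAG, the TCF/LEF letters on the other strand. The TCF/LEF letters occurred in 2 of the 6 genes (13.9% of all promoters) and the Maf half-site in 2 of the 6 (16.1%). A match describes letters in the sequence and not a bound site.

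Among the 544 inner root sheath cells the score had a median of 118.6 UMIs per 10000, quartiles of 50.4 and 214.2, and a range of 20.22 to 3715. The 5 barcodes just inside the limit scored 20.22 to 20.74 and the 5 just outside scored 19.32 to 19.96. Between 18 and 20 lay 26 kept barcodes, and between 20 and 22 lay 13. A wider zone from 10 to 20 held 211 barcodes, of which 84 were hair matrix cells. Free RNA, read from 470286 barcodes with at most 10 UMIs, had a score of 18.92, whereas 6648 of the kept barcodes held no UMI of the 6 genes. Members held 94.9% of the 63007 UMIs of these genes in kept barcodes. In 518 of the 544 cells at least 2 of the 6 genes were detected, and in 62 cells all 6 were.

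**Figure D1:**
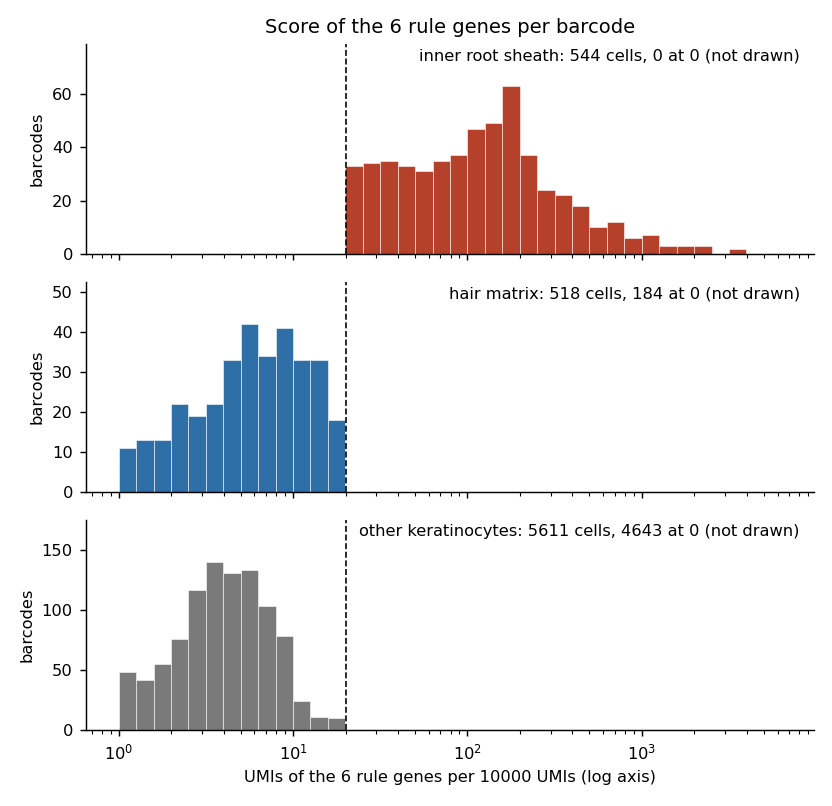
Histograms of the UMIs of the 6 genes of the rule per 10000 UMIs of a barcode (log axis, bins of equal log width, values below 1 drawn in the first bin) in 544 inner root sheath cells, 518 hair matrix cells and 5611 other keratinocytes, with the limit of 20 as a dashed line. Inner root sheath cells spread from 20.22 to 3715, and barcodes at 0 (184 hair matrix cells and 4643 other keratinocytes) are not drawn.

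The 6 genes were not used evenly. Krt71 held 37.6% of the UMIs of the 6 genes and was the highest of them in 265 cells. Tchh held 26.6%, but only 193 cells (35.5%) had any Tchh UMI, and the 54 cells richest in it held 81.7% of its UMIs. Krt25 and Krt28 were the most widely detected, in 480 and 474 cells, and both were detected in 444. Krt28 was also the most evenly spread of the 6, with 36.0% of its UMIs in its 54 richest cells. Krt73 was detected in 253 cells and Krt27 in 306. Krt71 and Krt73 were detected together in 220 cells, Krt71 without Krt73 in 216 and Krt73 without Krt71 in 33, while 75 cells had neither. Between the groups these genes differ by construction. Summed over cells, Krt71 stood at 10600 CPM (counts per 1000000 UMIs) in inner root sheath cells, 24.9 CPM in hair matrix cells and 13.5 CPM in other keratinocytes. Krt72, a type II keratin known from the sheath cuticle that the rule did not use, had 82 UMIs in 11 inner root sheath cells (38.7 CPM) and none in the other 2 groups. Krt26 had 13 UMIs. Krt74 was not analysed here.

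Cells were divided by their type II keratins, a split made after the values were seen. In 368 cells (67.6%) Krt71 UMIs equalled or exceeded those of Krt72 and Krt73 together, in 101 cells (18.6%) Krt72 and Krt73 exceeded Krt71, and 75 cells (13.8%) had no UMI of the 3 genes. Of the 11 cells with Krt72, all had Krt73, 10 were among the 101 and 7 lacked Krt71. In the 101 Krt73-led cells, Krt28 stood at 4822 CPM (4590 to 5063) and Krt25 at 2105 CPM (1953 to 2267). In the 368 Krt71-led cells the order was reversed, with Krt28 at 1872 CPM and Krt25 at 6787 CPM (6657 to 6919). Tchh was at 3599 CPM in Krt73-led and 8111 CPM in Krt71-led cells. Scores differed between the sets, with 43 Krt71-led cells and 1 Krt73-led cell at 500 or more. In the 178 Krt71-led cells at 50 to 200, Krt25 was at 2424 CPM, Krt28 at 1670 CPM and Tchh at 390 CPM. The order of Krt25 and Krt28 held there by a smaller margin. How far the score shaped these differences was not tested.

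Several genes that the split did not use differed between Krt73-led and Krt71-led cells. Of 9213 genes compared, 807 (8.76%) were at least 2-fold higher and 911 (9.89%) at least 2-fold lower in the Krt73-led cells. Prr9, a gene of the epidermal differentiation complex, was at 2049 CPM (1898 to 2208) in Krt73-led cells, with a UMI in 54 of 101, and at 131 CPM (114 to 151) in Krt71-led cells, with a UMI in 32 of 368. Crym, which encodes a thyroid hormone-binding crystallin, was at 933 CPM against 40.7 CPM. Fbp1, a gluconeogenic enzyme, was at 564 CPM against 29.6 CPM, and Cryba4, a beta crystallin, at 441 CPM against 13.8 CPM. The transcription factor genes Gata3 and Sp6 were at 686 CPM and 236 CPM in Krt73-led cells, against 304 CPM and 17.1 CPM. Cdh6, a classical cadherin, was at 576 CPM against 72.9 CPM, and Ctps, which makes CTP, at 522 CPM against 38.1 CPM.
A further group of genes was lower in the Krt73-led cells. Ctsc, the protease cathepsin C, was at 53.7 CPM in Krt73-led and 365 CPM in Krt71-led cells. Maf, a transcription factor of the sheath, was at 295 CPM against 722 CPM, Anxa1 (a membrane-binding annexin) at 44.7 CPM against 461 CPM, and Creb5 at 11.9 CPM against 196 CPM. Slc39a8, a metal ion transporter, was at 11.9 CPM against 162 CPM. Dsc1, a desmosomal cadherin, was at 289 CPM in Krt73-led and 159 CPM in Krt71-led cells, whereas Dsg1a was nearly level at 245 CPM and 253 CPM. An Mki67 or Top2a UMI, a mark of dividing cells, was found in 16.8% (10.1 to 25.6%) of Krt73-led and 26.4% (21.9 to 31.2%) of Krt71-led cells at 1000 UMIs, and in 23.8% and 39.7% without thinning.

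**Figure D2:**
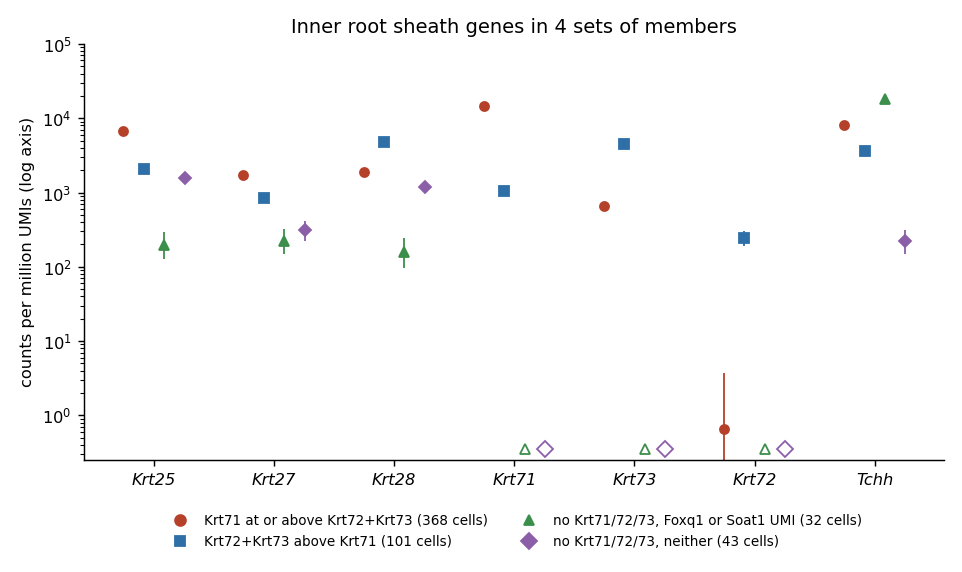
Levels of Krt25, Krt27, Krt28, Krt71, Krt73, Krt72 and Tchh in CPM (log axis) in 4 sets of inner root sheath cells divided by type II keratin and by Foxq1 or Soat1, where bars are 95% Poisson intervals and open symbols at the foot mark 0 UMIs. Krt28 was higher in the 101 Krt73-led cells (4822 CPM) than in the 368 Krt71-led cells (1872 CPM), Krt25 the other way round, and Tchh was highest in the 32 cells with Foxq1 or Soat1 (18350 CPM). The sets were not matched for score.

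The 75 cells without Krt71, Krt72 or Krt73 did not form a uniform group. In 32 of them a UMI of Foxq1 or Soat1 was found, genes known from the medulla of the hair shaft, and this division was also chosen after the values were seen. Only 12 of the 469 cells with a type II sheath keratin had either gene. In the 32 cells Tchh was at 18350 CPM (17610 to 19120) and was detected in 26, while Krt25 was at 198 CPM and was detected in 6. These cells therefore passed the rule mostly through Tchh. Against the 469 cells with a type II keratin, 9428 genes were compared, and 1206 (12.8%) were at least 2-fold higher and 1211 (12.8%) at least 2-fold lower.
Gpnmb, a glycoprotein of pigmented and lysosome-rich cells, was at 4444 CPM (4084 to 4827) in the 32 cells, where 29 had a UMI, and at 4.84 CPM in the 469. Csta1, of the cystatin A family of protease inhibitors, was at 2036 CPM against 1 UMI, and Tchhl1, a trichohyalin-like gene, at 1006 CPM against 1 UMI. Kitl, the ligand of Kit on melanocytes, was at 1529 CPM (1321 to 1760) against 4.84 CPM. Hoxc13, a regulator of hair keratin genes, was at 467 CPM against 14.5 CPM, and Krt75 at 1077 CPM against 43.1 CPM. Padi3, which deiminates trichohyalin, was at 372 CPM (274 to 495) against 80.7 CPM, and Tgm3, a transglutaminase, at 325 CPM against 35.5 CPM. In contrast, Gata3 had 5 UMIs and Dsc1 had none in these 32 cells. Krt35, a hair shaft keratin, had 1 UMI. The rule gathered them with the sheath, and they are kept in the 544 cells below. Levels of 26 named or listed genes rest mostly on them, among them Tchhl1, Csta1, Gpnmb, Kitl, Ivl (66 of 84 UMIs), Hoxc13 (59 of 91), Krt75 (136 of 218), Tgm6 (23 of 33), Padi4 (20 of 35) and Gli3 (35 of 65). Of 362 such genes, 25 had another 2-fold call over hair matrix cells, or could no longer be compared, when these 32 cells were left out, and 23 did over other keratinocytes. This alternative was chosen after seeing the data.
The remaining 43 cells had a median score of 28.8. Their Krt25 and Krt28 levels were 1580 CPM and 1196 CPM, Tchh was at 222 CPM, Gata3 at 140 CPM and Maf at 44.3 CPM. Mki67 or Top2a UMIs were found in 41.9% (27.0 to 57.9%) of them at 1000 UMIs and in 62.8% without thinning. Krt33a had no UMI in them, and Krt35 was at 51.7 CPM against 2181 CPM in hair matrix cells.

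Compared with hair matrix cells, inner root sheath cells had higher levels of Gata3, Maf, Cux1 and Tfap2b and far lower levels of hair shaft keratins. Of 11319 genes compared, 695 (6.14%) were at least 2-fold higher and 999 (8.83%) at least 2-fold lower in the sheath, with a median log2 ratio over all genes of −0.02. Compared with other keratinocytes, 2395 of 13885 genes (17.2%) were at least 2-fold higher and 2313 (16.7%) lower. There the median log2 ratio was 0.23, and with that median set to 0 the counts were 1651 higher and 2778 lower. These comparisons describe groups that the rule itself separated.

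Gata3, a transcription factor required to specify the sheath, was at 338 CPM (314 to 364) in inner root sheath cells and 50.3 CPM (42.0 to 59.6) in hair matrix cells, a log2 ratio of 2.75. It was not particular to the sheath in the skin, since other keratinocytes held 293 CPM, and that small difference (log2 0.21, 0.09 to 0.32) had the opposite sign with the median set to 0 or with a score limit of 10. Maf was at 581 CPM against 37.6 CPM in hair matrix cells (log2 3.95, 3.65 to 4.26) and was also higher than in other keratinocytes (log2 1.47). Cux1, a homeobox factor of the sheath, was at 769 CPM against 372 CPM and 91.9 CPM. Tfap2b was at 192 CPM against 53.3 CPM and 40.2 CPM, and Foxe1 at 41.5 CPM against 11.1 CPM and 7.25 CPM. The hair matrix factors Lef1 (102 CPM against 450 CPM) and Hoxc13 (42.9 CPM against 372 CPM, and 16.1 CPM without the 32 cells) were lower in the sheath, but both had helped to choose the hair matrix cells. Of the 6 genes of that choice, 3 were at least 2-fold lower in the sheath and the rest stayed within 2-fold. Together the 6 summed to 495 CPM against 1192 CPM. Among factors that the choice did not use, Runx1 (59.4 CPM against 172 CPM), Trps1 (67.0 CPM against 165 CPM) and Sox21 (42.5 CPM against 112 CPM) were lower in the sheath than in hair matrix cells. In the list of transcription factors, 4 of 37 compared genes were at least 2-fold higher and 10 lower than in hair matrix cells (median log2 −0.12), beside 6.14% and 8.83% of all genes. Over other keratinocytes 6 of 38 were higher and 14 lower (median −0.52), beside 17.2% and 16.7% of all genes. Sox9, a factor of the outer root sheath and stem cells, was at 6.60 CPM in the sheath and 147 CPM in other keratinocytes (log2 −4.47, −5.34 to −3.72).

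**Figure D3:**
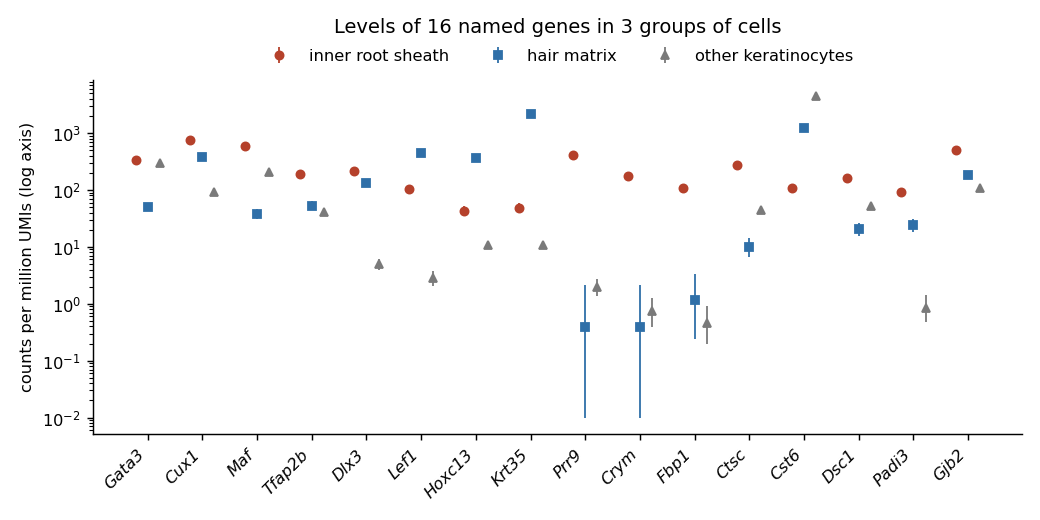
Levels of 16 named genes in CPM (log axis) in inner root sheath cells (circles), hair matrix cells (squares) and other keratinocytes (triangles), where bars are 95% Poisson intervals. Gata3, Maf, Prr9, Crym, Fbp1 and Ctsc lay above the hair matrix level, Lef1, Hoxc13 and Krt35 below it, and Cst6 below both other groups.

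Outside the lists, the highest ratio over hair matrix cells was that of Prr9, at 419 CPM (392 to 448) against 1 UMI in the hair matrix (log2 10.09, 7.61 to 15.40) and 35 UMIs in other keratinocytes. Crym (177 CPM) also had 1 UMI in hair matrix cells, and Fbp1 (110 CPM) had 1.15 CPM there. As given above, most UMIs of these genes lay in Krt73-led cells. Ctsc was at 276 CPM in the sheath, 9.97 CPM in hair matrix cells and 44.5 CPM in other keratinocytes (log2 4.79 and 2.63). Nkd2, an inhibitor of Wnt signalling, was at 101 CPM against 2.30 CPM in hair matrix cells, and Slc39a8 at 118 CPM against 5.75 CPM. Cpm, a membrane carboxypeptidase, was at 65.6 CPM against 3.07 CPM, and Sult2b1, which makes cholesterol sulfate, at 96.7 CPM against 9.59 CPM. Over other keratinocytes, Cryba4 (92.9 CPM against 0.29 CPM), Cdh6 (151 CPM against 0.69 CPM) and Hunk (57.6 CPM against 0.80 CPM) were also among the 10 highest ratios.
Hair shaft genes gave the lowest ratios over the hair matrix. Krt35 was at 49.1 CPM (40.1 to 59.5) in the sheath and 2181 CPM in hair matrix cells (log2 −5.47), with 27 of its 104 sheath UMIs in a single cell. Krt33a had 3 UMIs against 1092 CPM, Krt83 had 2 UMIs against 677 CPM, and the keratin-associated protein gene Krtap8-1 was at 11.3 CPM against 3464 CPM. Of 11 hair shaft keratins compared, 10 were at least 2-fold lower in the sheath and none was higher (median log2 −5.69), and the whole list summed to 77.8 CPM against 5616 CPM. Among all genes compared, 8.83% were lower and 6.14% higher. Krt85 was not analysed here. Cst6, a secreted inhibitor of cathepsins, was at 109 CPM in the sheath, 1222 CPM in hair matrix cells and 4412 CPM in other keratinocytes. Sostdc1, a BMP and Wnt antagonist, had 3 UMIs in the sheath against 108 CPM in other keratinocytes.

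The crosslinking and deiminating enzymes harden the sheath by acting on trichohyalin. Together they stood at 216 CPM in inner root sheath cells, 125 CPM in hair matrix cells and 40.3 CPM in other keratinocytes. Over hair matrix cells 3 of 7 were at least 2-fold higher and 1 lower (median log2 0.54), beside 6.14% and 8.83% of all genes. Over other keratinocytes 6 of 8 were higher and 1 lower (median 4.26), beside 17.2% and 16.7% of all genes. Without the 32 cells with Foxq1 or Soat1 the list stood at 162 CPM in the sheath. It then had 3 of 7 higher and 2 lower over hair matrix cells (median 0.39). Padi3 was at 92.9 CPM (80.4 to 107) against 23.8 CPM and 0.857 CPM. Tgm3 was at 50.5 CPM (41.4 to 61.0) and 41.8 CPM (34.3 to 50.4) in sheath and hair matrix, intervals that overlap, and at 33.1 CPM in the sheath without the 32 cells, but it had only 70 UMIs in the 5611 other keratinocytes. Tgm1 was at 27.8 CPM against 10.4 CPM and 9.88 CPM, and Padi1 had 21 UMIs in the sheath and none in the hair matrix. Padi4 was lower in the sheath than in the hair matrix (16.5 CPM against 36.1 CPM, and 7.52 CPM without the 32 cells).
Among the 20 proteins that these enzymes can join, the direction was mixed, with 8 of 17 at least 2-fold higher and 8 lower than in hair matrix cells (median log2 −0.01). Without the 32 cells, 5 of 15 were higher and 8 lower (median −1.02), since Tchhl1, Ivl and Sprr1b then no longer counted as higher. Crnn (cornulin) had 118 UMIs (55.7 CPM) in the sheath, none in hair matrix cells and 0.17 CPM in other keratinocytes. Evpl and Ppl, the plakins envoplakin and periplakin, were at 90.1 CPM and 122 CPM in the sheath against 30.3 CPM and 59.8 CPM in hair matrix cells. Lor, the loricrin of the epidermal envelope, was at 16.5 CPM against 532 CPM and 617 CPM. S100a3, a hair cuticle protein, was at 417 CPM against 2787 CPM in hair matrix cells, but 542 of its 883 sheath UMIs (61.4%) lay in 1 cell, and without that cell it was at 162 CPM. The epidermal differentiation complex on chromosome 3 (chr3:90511034-93564645), which holds Tchh, Tchhl1, Crnn, Prr9 and Lor, had 28 genes compared with hair matrix cells, of which 10 were higher and 8 lower, beside 6.14% and 8.83% of all genes. Of the 10, Tchh was used by the rule, and Tchhl1, Ivl and Sprr1b rest on the 32 cells.

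Genes of cell contacts were higher in the sheath than in hair matrix cells more often than lower. Beside them, 6.14% of all genes compared were higher and 8.83% lower. In the desmosome list 5 of 15 genes were at least 2-fold higher and 3 lower (median log2 0.63). Dsc1 was at 160 CPM (143 to 178) against 20.3 CPM (15.2 to 26.6), and Dsg1a at 226 CPM against 56.4 CPM. Perp, a desmosomal membrane protein, was at 1161 CPM against 559 CPM. Dsg4, the desmosomal cadherin of the hair shaft, had 3 UMIs against 34.9 CPM. In the list of other junctions 4 of 8 genes were higher and 1 lower (median 0.75), led by Cdh1 (128 CPM against 44.9 CPM) and the connexin gene Gjb2 (505 CPM against 181 CPM). Against other keratinocytes 2 of 14 desmosome genes were at least 2-fold higher and 2 lower (median −0.46), and the list summed to 3711 CPM against 5340 CPM. Of the other junction genes 3 of 8 were higher and none lower (median −0.34), beside 17.2% and 16.7% of all genes. Gjb2 (107 CPM) and Dsc1 (53.2 CPM) were again higher in the sheath. Dsp (1027 CPM against 1416 CPM), Perp (1596 CPM in other keratinocytes) and Cdh1 (224 CPM) were lower by less than 2-fold.
Genes that tie basal cells to the basement membrane were low in the sheath. All 10 were at least 2-fold lower than in other keratinocytes (median log2 −2.72), among them Col17a1 (76.9 CPM against 1078 CPM) and Dst (38.7 CPM against 585 CPM). Against hair matrix cells 3 of 10 were lower. Of all genes compared, 16.7% and 8.83% were lower in these 2 comparisons. Keratins of the epidermis and outer root sheath made up most of the markers behind the choice of other keratinocytes, so Krt1, Krt10, Krt5, Krt14, Krt15, Krt17, Krt6a and Krt79 are lower in the sheath by construction. Of those not used, Krt77 was at 113 CPM against 2205 CPM, Krt78 at 2.36 CPM against 58.5 CPM and Krt16 at 13.7 CPM against 185 CPM. Krt75 was at 103 CPM against 46.8 CPM over all 544 cells, but at 41.1 CPM without the 32 cells with Foxq1 or Soat1. All 12 immediate early and stress genes were also at least 2-fold lower than in other keratinocytes (median −2.52), beside 16.7% of all genes. Fos was at 94.8 CPM against 1046 CPM, and none of the 12 passed 2-fold against hair matrix cells.

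**Figure D4:**
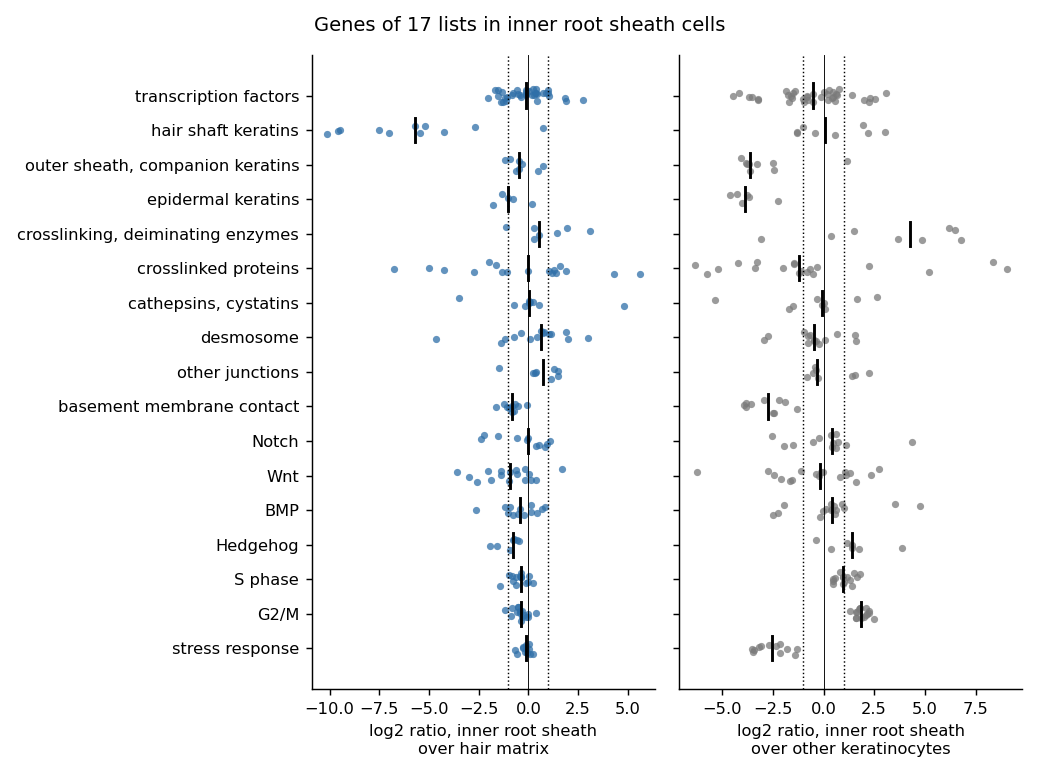
Log2 ratio of each compared gene of 17 lists in inner root sheath cells over hair matrix cells (left) and over other keratinocytes (right), with black bars at list medians and dotted lines at 2-fold. Hair shaft keratins lay far below the hair matrix level (median −5.69), and basement membrane and stress genes far below other keratinocytes, where most outer sheath keratins, Krt1 and Krt10 are low by construction.

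Signalling genes of the hair bulb were more often lower than higher in the sheath against hair matrix cells. All genes compared also leaned that way, with 6.14% higher and 8.83% lower. In the Notch list 1 of 11 genes was at least 2-fold higher and 3 were lower (median log2 −0.04). Notch1 was at 246 CPM (226 to 268) in the sheath, 186 CPM (170 to 203) in hair matrix cells and 113 CPM in other keratinocytes. The ligands Jag1 (53.8 CPM) and Jag2 (15.1 CPM) were lower than in hair matrix cells (154 CPM and 71.4 CPM). In the Wnt list 1 of 17 genes was at least 2-fold higher and 7 lower than in hair matrix cells (median log2 −0.93), the higher one being Wnt11 at 18.9 CPM against 5.75 CPM. Axin2, a target of the pathway, was at 26.9 CPM against 51.4 CPM, and Wnt5a at 76.9 CPM against 87.5 CPM. In the BMP list none of 13 was higher and 3 were lower, and the BMP target Id3 was at 510 CPM against 284 CPM (log2 0.85). In the Hedgehog list none of 7 was higher and 2 were lower (median −0.75), and the target Ptch1 was at 68.9 CPM against 116 CPM. Over other keratinocytes 5 of 7 Hedgehog genes were at least 2-fold higher and none lower (median 1.40). There, 2 of 13 Notch genes were higher and 3 lower (median 0.41), and 3 of 16 BMP genes higher and 3 lower (median 0.40). Of 18 Wnt genes 6 were higher and 7 lower (median −0.17). Of all genes compared there, 17.2% were higher and 16.7% lower. Lpar6, a lysophosphatidic acid receptor whose loss changes hair form, was at 76.0 CPM in the sheath, 23.8 CPM in hair matrix cells and 10.1 CPM in other keratinocytes. Among genes for removal of DNA, 1 of 6 was at least 2-fold higher and 3 were lower than in hair matrix cells (median −0.66). Dnase2a, a lysosomal nuclease, was at 143 CPM against 58.3 CPM in hair matrix cells, while Dnase1l2 had 2 UMIs in the sheath against 21.1 CPM.

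The inner root sheath cells were then placed in 4 bins of the score, of 134 cells (20 to 50), 264 cells (50 to 200), 100 cells (200 to 500) and 46 cells (500 and above). Median UMIs were 3384, 3008, 3416 and 4848. The 6 genes of the rule themselves took 12.6% of all UMIs in the top bin. Of 7009 genes compared between the top and the lowest bin, 590 (8.42%) were at least 2-fold higher and 1781 (25.4%) lower, with a median log2 ratio of −0.33. The bins describe cells ordered by these transcripts and not a measured time.
Cell division genes were low where the score was high. The 16 G2/M genes summed to 1901 CPM (1783 to 2026) in the lowest bin, 2042 CPM in the next, 447 CPM in the third and 94.4 CPM (61.6 to 138) in the top bin. The 15 S phase genes stood at 1595, 762, 238 and 131 CPM in the same order. Cells with an Mki67 or Top2a UMI at 1000 UMIs made up 41.8% (33.3 to 50.6%) of the lowest bin, 27.7% (22.3 to 33.5%) of the second and 7 of the 100 cells (2.86 to 13.9%) of the third, and there was none among the 46 cells of the top bin (0 to 7.71%). Without thinning the shares were 57.5% in the lowest bin, 40.9% in the second and 6.52% in the top bin. Hair matrix cells had such a UMI in 29.5% (44.0% without thinning) and other keratinocytes in 5.31% (9.36%). Within the Krt71-led cells alone the G2/M sums were 1969, 2470 and 530 CPM and, in the top bin, 26 UMIs over 43 cells, so the order was also present within 1 set.
Genes of hardening and of desmosomes were high in the top bin. The crosslinking and deiminating enzymes stood at 77.7 CPM (55.2 to 106) in the lowest bin and 573 CPM (487 to 670) in the top bin, and all 6 that could be compared were at least 2-fold higher there. Within the Krt71-led cells the same list stood at 29.1 CPM and 497 CPM. The desmosome list stood at 2546 CPM and 5915 CPM, with 8 of 12 genes at least 2-fold higher in the top bin and 2 lower, and with Dsc1 at 399 CPM there and only 6 UMIs in the lowest. Of the other junction genes 3 of 8 were higher and 1 lower, and Gja1, a connexin gene, was at 780 CPM in the lowest and 548 CPM in the top bin. Crnn had no UMI in the lowest bin and 374 CPM in the top bin. Aqp3, a water and glycerol channel, was at 13.9 CPM and 457 CPM, Prss53, a serine protease, at 1.99 CPM and 178 CPM, and Ctsc at 129 CPM and 719 CPM. The basement membrane list went the other way, from 554 CPM (490 to 623) to 90.7 CPM (58.7 to 134). Maf was at 121, 501, 1140 and 944 CPM over the 4 bins. Gata3 was at 211, 402, 452 and 192 CPM, lower at both ends than in the middle. The bins differed in make-up. Krt73-led cells numbered 12, 73, 15 and 1 in the 4 bins, and cells without a type II keratin UMI 54, 13, 6 and 2. How far this shaped the Maf and Gata3 values was not tested. Ptn, a secreted growth factor, was at 400 CPM in the lowest bin and had no UMI in the top bin.

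**Figure D5:**
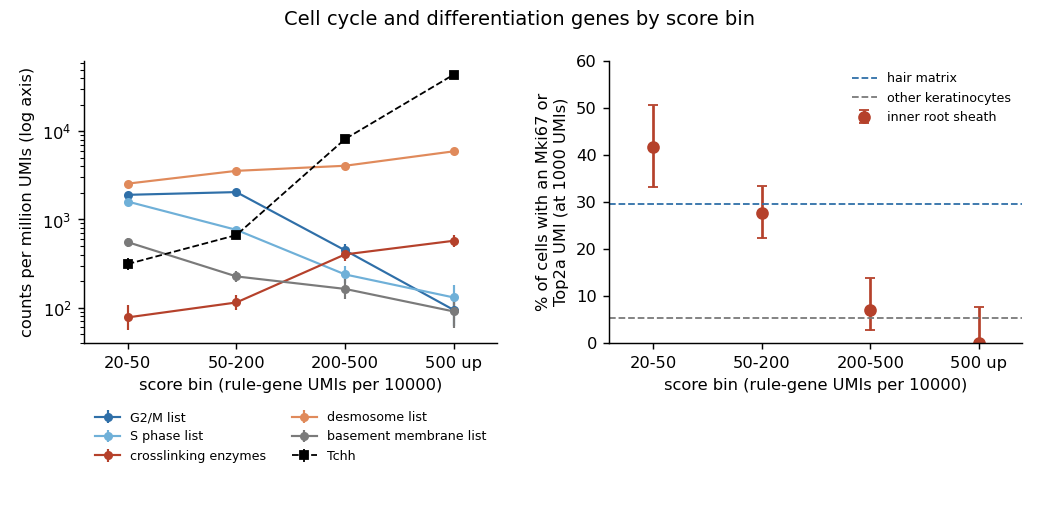
Left, summed levels of 5 gene lists and of Tchh in CPM (log axis) in 4 bins of the score, and right, the share of cells with an Mki67 or Top2a UMI after thinning to 1000 UMIs, where bars are 95% counting intervals and dashed lines give hair matrix cells (29.5%) and other keratinocytes (5.31%). G2/M genes stood at 1901 CPM in the lowest and 94.4 CPM in the top bin, and the crosslinking enzymes at 77.7 CPM and 573 CPM. Tchh is part of the score, so its rise over the bins is by construction.

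Markers of other classes were present at low levels. Fibroblast markers summed to 295 CPM in inner root sheath cells, 537 CPM in hair matrix cells and 39.9 CPM in other keratinocytes, against 2278 CPM in free RNA, and their part in the results was not tested. Most of the 626 sheath UMIs were of Dcn, with 345 in the 469 cells with a type II keratin and 114 in the 75 without. Skeletal muscle markers summed to 383, 389 and 181 CPM, and immune markers to 26.4, 16.1 and 13.7 CPM in the same order. Other keratinocytes are low in these markers by construction, since they had to hold fewer than 20 UMIs per 10000 of each other class. No such limit was set for sheath or hair matrix cells. Endothelial markers summed to 8.96 CPM and melanocyte markers to 45.8 CPM in the sheath. The sebocyte list summed to 806 CPM in the sheath through Mgst1, Soat1 and Scd1. Its other genes Awat2, Cidea and Elovl3 had 4, 1 and 2 UMIs. Soat1 had 279 UMIs in the 32 cells with Foxq1 or Soat1 and 3 in the 469 cells with a type II keratin. At least 20 UMIs per 10000 of another class were found in 58 of the 544 cells and in 56 of the 518 hair matrix cells. In the sheath the sebocyte list reached this level in 36 cells. Fibroblast markers did so in 12 cells, skeletal muscle markers in 7, immune markers in 2 and smooth muscle markers in 1.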

How the data were processed

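Single cells of pooled back-skin biopsies and of pooled preputial glands were measured by the authors with Chromium 3′ v3.1 chemistry, and the deposited matrices hold raw UMI counts per gene and barcode from Cell Ranger 4 on mm10, per the file headers, with no filter on barcodes. The lists of possible barcodes differ in size between skin (6794880) and preputial gland (737280), although the labels name the same kit for both, so the libraries are set side by side only by the score. All barcodes with at least 500 genes, 1000 UMIs and at most 10% mitochondrial UMIs were kept. An upper limit on UMIs and the removal of barcodes that resembled simulated doublets were tried only as alternatives. Members and gene lists were chosen with earlier results of these data known.

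Counts of all cells in a group were added and divided by the group's total to give CPM, with exact Poisson intervals, and ratios with exact binomial intervals. A gene was compared where both groups together held at least 10 UMIs, and called past 2-fold. A group at 0 was set to 3 UMIs for its ratio. With 1 library per tissue no test was run. Genes were named from the fixed lists and, for each comparison, as the 10 highest and 10 lowest ratios among genes that reached 50 CPM and were detected in 10% or more of the cells of either group, without the 6 genes of the rule, mitochondrial and ribosomal genes. Named genes are given in part. Shares of cells were thinned to 1000 UMIs per cell. Other classes of cells were set by at least 20 marker UMIs per 10000. The scripts used Python 3.11.15, numpy 2.4.6, scipy 1.17.1 and pandas 2.3.3, and were tested on simulated data. Alternatives changed the barcode filters, score limit, group rules, scaling and thresholds.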

Additional observations from a re-analysis of the deposited data

How the results depend on the processing

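Across 16 alternatives, 112 of 117 recomputed main values stayed within 1.5 times or within their counting interval. The 5 that did not were counts of genes. With at least 50 UMIs over both groups the sheath was past 2-fold over hair matrix cells for 318 genes higher and 379 lower, against 695 and 999, because fewer genes are compared. With a fold of 1.5 these counts were 1509 and 1900, and 4492 genes were higher than in other keratinocytes against 2395. Of 528 recomputed ratios of 24 named genes, 410 stayed in the main interval, 113 moved beyond it and 5 reversed. With a score limit of 10 the log2 ratio over hair matrix cells was 0.30 for Mki67 (otherwise −0.24), 0.18 for Top2a (otherwise −0.40) and 0.14 for Sox9 (otherwise −1.25), and for Gata3 over other keratinocytes the log2 ratio was −0.089. With the median ratio set to 1 the Gata3 value was −0.023. The cause was not tested. Cells with a type II keratin UMI only numbered 469. Barcodes that resembled simulated doublets numbered 634 (7.12%), among them 44 of the 544 cells (8.09%). The type II setting and the values without the richest cell of a gene were chosen after seeing the data. No paired analysis was possible because each tissue is 1 library.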
